A study of Canis lupus familiaris with 18 samples.

Results

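Expression of 20 dog genes was followed in MDCKI cells. They were chosen because, in cells carrying the light-driven enzyme bPAC, their level was raised at a high dose of light while the mean of the libraries at a low dose stayed close to that in the dark. MDCKI cells are kidney epithelial cells grown as a line, and bPAC is a bacterial adenylyl cyclase that blue light switches on, so that light dose sets the production of cyclic AMP. The labels give 6 groups: the parental line kept dark (3 libraries), at low light (3) and at high light (2), and the bPAC line kept dark (3), at low light (4) and at high light (3). Cells of every group stood in medium with 0.5% serum, and the 2 h period of no, low or high light began 16 h after plating. How bPAC is expressed, and whether the bPAC line is 1 clone, is not stated in the labels. The parental line carries no bPAC, so its illuminated libraries show what light does without the enzyme.

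Cyclic AMP acts in epithelial cells largely through protein kinase A, which it frees from its regulatory subunits. The freed kinase can enter the nucleus and phosphorylate CREB, a factor that switches on early response genes, and in kidney epithelium the pathway is known for control of water and ion transport. The title of the series concerns a kinase response that changes direction with the amount of cyclic AMP. The 20 genes were chosen for a difference between the light doses, not for a change of direction. These RNA libraries do not measure kinase activity. The deposited tables name genes by Ensembl dog ID without symbols, and 0 of 32220 IDs matched the reference table of dog genes. Functions and sequences of the 20 genes are therefore not given, and the epithelial identity of the libraries was not checked against marker genes.

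The choice used CPM, the count of a gene as a share of all gene reads of its library, scaled so that a library's values add up to 1000000. L is log2 of the ratio of mean CPM + 1 in light to mean CPM + 1 in the dark of the same line. A gene was chosen when L in bPAC cells was at least 0.8 at high light and between -0.3 and 0.3 at low light, and its largest group mean was at least 10 CPM. A set of IDs named in the rule was left out, of which 1 met these conditions. Of 32220 IDs, 5948 others reached the level minimum, and 227 of those had L of at least 0.8 at high light. At low light 203 of the 227 lay above the band, 20 inside it and 4 below it. The 20 genes inside the band thus made up 8.81% of the genes raised at high light. At the high light minimum, the nearest gene inside had L of 0.801 and the nearest outside 0.799. The upper edge of the low light band separated genes at 0.299 and 0.302, and the lower edge genes at -0.277 and -0.413. The lowest largest group mean inside was 13.8 CPM and the highest outside 9.74 CPM.

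Gene reads ranged from 2638511 to 9610144 per library. The share of reads listed as not uniquely aligned, which count for no gene, was 38.5% to 39.9% in dark bPAC libraries. It was 37.5% to 40.7% at low light and 41.7% to 44.4% at high light. In parental high light the 2 libraries held 38.9% and 44.2%. The part of these differences in the levels below was not tested. Library bPAC low light 4 stood apart for these genes, whose choice used the mean of the low light libraries. Their summed level there was 1350 CPM, against 2909 to 3188 CPM in the other 3 low light libraries and 2557 to 2664 CPM in the 3 bPAC dark libraries. The labels do not say whether replicates were separate cultures, and p-values cover no more than the variation among them, some or all of it possibly technical. Bulk RNA cannot tell more cells at a high level from a higher level per cell.

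In bPAC cells the 20 genes went from 5.92 to 965 CPM in the dark (group means, median 27.95 CPM) to between 13.8 and 1989 CPM at high light. The ratio of the means lay between 1.75 and 4.21 with a median of 2.06. These values chose the genes and are given as a description. The same holds for the separation of these libraries given next, which the choice favours in the 20 genes and not in the 5948. In 15 of the 20 genes all 3 high light libraries lay above all 7 other bPAC libraries, and 2.67% of the 5948 genes at the level minimum showed such a separation. With CPM scaled by TMM or by DESeq2's size factors, 15 of the 20 were again separated, and so were 6.71% and 6.27% of the 5948 genes. In the other 5 genes the high light libraries overlapped the rest, and in each the overlap came through bPAC high light 3, since all 20 genes were separated without that library (5.33% of the 5948 genes then were). Without any other single bPAC library, 15 or 16 genes were separated.

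ENSCAFG00000016469 had the highest L among the 15 separated genes. Its level was 5.72, 5.71 and 6.32 CPM in bPAC dark libraries 1 to 3, and 5.61, 7.64, 5.23 and 3.95 CPM in low light libraries 1 to 4. At high light it stood at 21.7, 23.1 and 29.9 CPM, or 24.9 ± 4.43 CPM (SD, n = 3), which is 4.21 times the dark mean. Dark and low light libraries were mixed, and the lowest high light library was well above all of them. The gene is of low abundance, with 16 to 25 reads per bPAC dark library and 79 to 155 per high light library.

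ENSCAFG00000011499 had the next highest L, 1.54. It stood at 261, 226 and 282 CPM in the bPAC dark libraries and at 867, 754 and 622 CPM at high light. At low light it measured 389, 439, 357 and 79.4 CPM in libraries 1 to 4. Libraries 1 to 3 therefore lay above every dark library and library 4 below every one, and their mean of 316 ± 161 CPM (SD, n = 4) gave the L of 0.299 that placed the gene just inside the band. Without low light library 4 its low light L was 0.62. For this gene the description of a level raised at high light alone needed low light library 4, and was fragile beyond it. The gene was chosen in 7 of the 10 selections that each left out 1 bPAC library. With TMM or size factors it was not chosen.

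**Figure D1:**
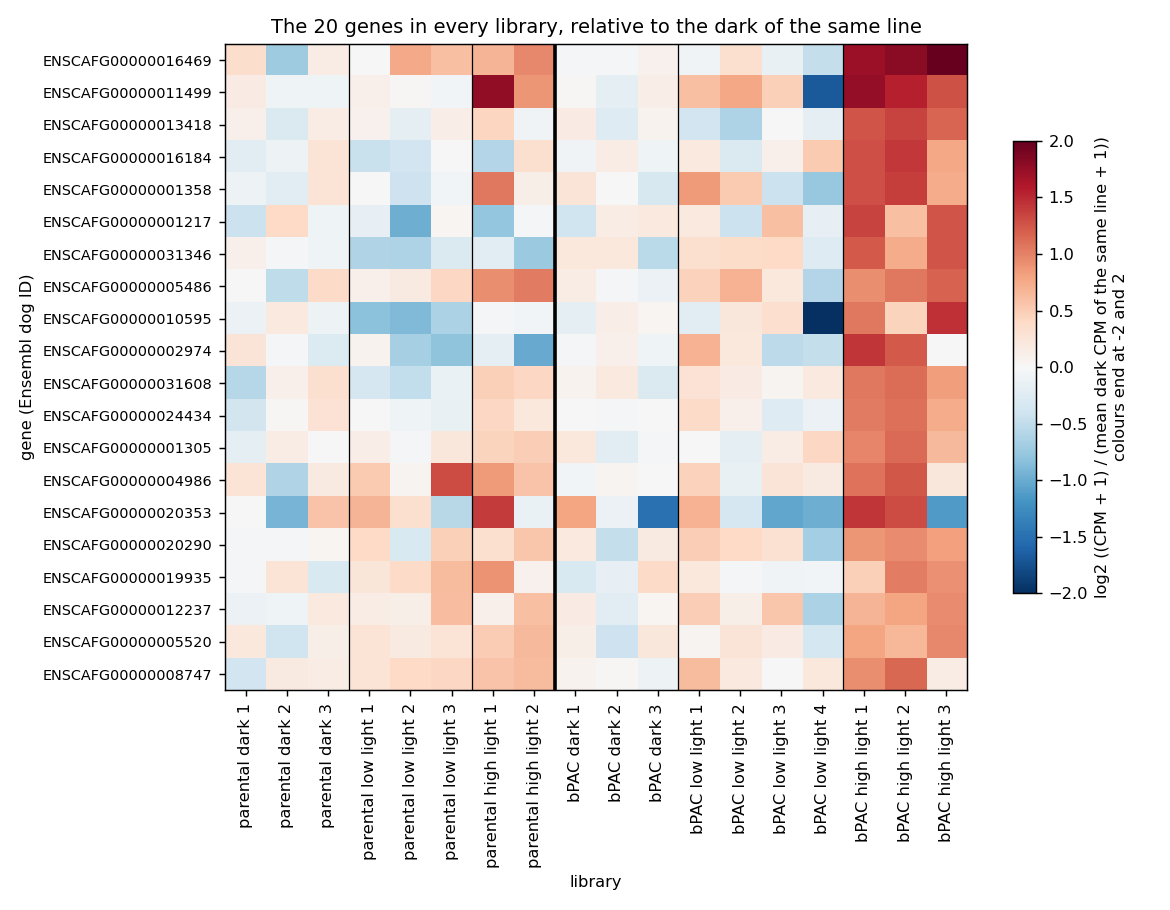
Each row is 1 of the 20 genes and each column 1 of 18 libraries; colour gives log2 of (CPM + 1) over (mean dark CPM + 1) of the same line, with colours ending at -2 and 2. The 3 bPAC high light columns are red almost throughout, as the choice of genes requires, library 3 least evenly, and bPAC low light 4 holds the deepest blue fields.

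The spread of the 4 low light libraries was examined for each gene, because the rule looked only at their mean. All 4 libraries lay inside the band of -0.3 to 0.3 for 2 genes, ENSCAFG00000031608 and ENSCAFG00000019935, both singled out after their values were seen. Between 1 and 3 libraries lay inside for 14 genes, and none did for 4. In 10 of the 20 genes the low light libraries fell outside the band on both sides. Among all 1915 genes at the level minimum whose low light mean lay in the band, 17.2% showed such a split and 23.0% had all 4 libraries inside. The 1915 were not chosen for a rise at high light, and of the 227 genes so raised 203 lay above the low light band. A gene high in most low light libraries could enter the 20 only if another library was low enough to offset them. The choice thus favours a split, and these counts and those per library are a description. Low light library 4 had 10 of the 20 genes below the band and 2 above it, and library 1 had 1 below and 11 above. Libraries 2 and 3 each had 3 below and 6 above. Over the 1915 genes library 4 had 23.3% below and 17.5% above the band, library 1 had 16.2% below and 19.1% above, and in libraries 2 and 3 each of these shares lay between 13.003% and 14.99%.

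The steadiest of these genes at low light was ENSCAFG00000031608. It measured 26.8, 29.2 and 20.6 CPM in bPAC dark libraries, 31.5, 28.6, 26.4 and 29.5 CPM at low light and 54.0, 56.8 and 46.6 CPM at high light. The dark and low light libraries overlapped, and the high light libraries lay apart above them.

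ENSCAFG00000010595, singled out after its values were seen as the gene with the highest level, showed the widest spread. In bPAC cells it measured 849, 1058 and 987 CPM in the dark and 826, 1130, 1218 and 119 CPM at low light. At high light it stood at 2004, 1317 and 2645 CPM. Low light library 4 was far below the other 3, which overlapped the dark libraries, and the high light libraries differed among themselves more than the dark ones. This gene accounted for much of the summed level. The other 19 genes together measured 1648 ± 136 CPM in bPAC dark (SD, n = 3), 1794 ± 396 CPM at low light (SD, n = 4) and 3536 ± 198 CPM at high light (SD, n = 3). Low light library 4 was the lowest of its group for those 19 as well, at 1231 CPM against 1805 to 2083 CPM.

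**Figure D2:**
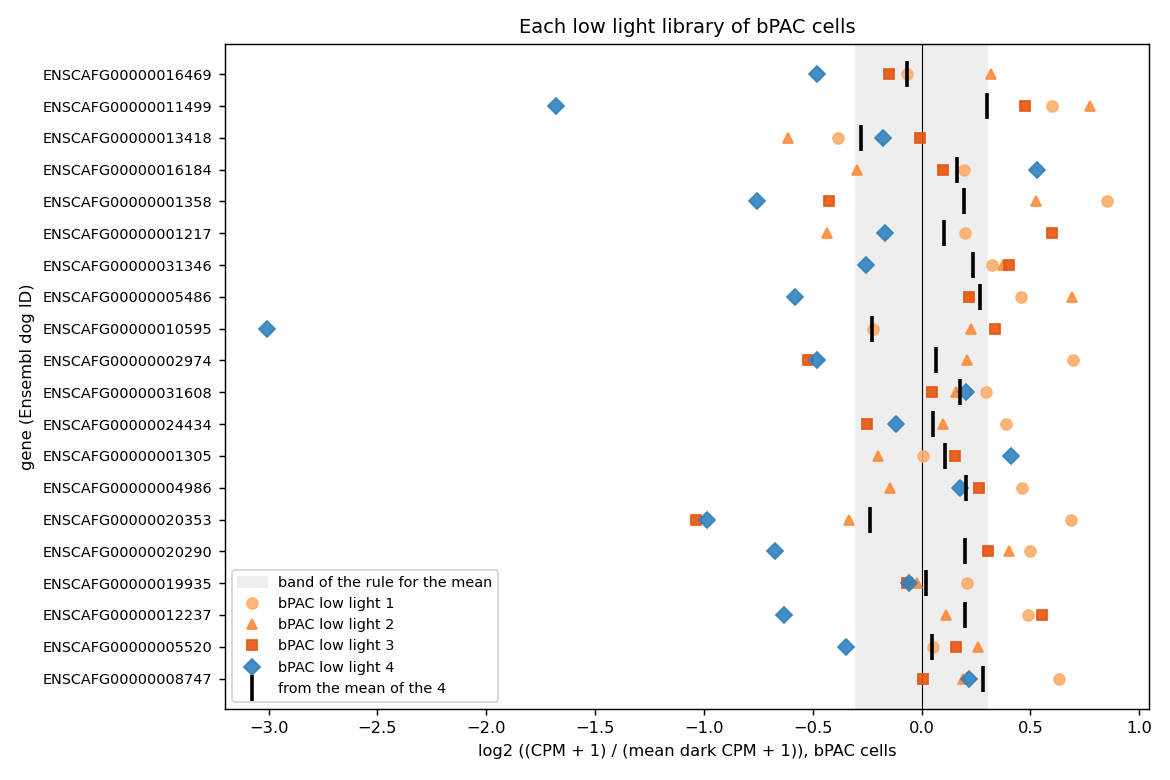
Points give L of each of the 4 bPAC low light libraries against the mean of the 3 bPAC dark libraries (horizontal axis, log2), with 1 row per gene; the black bar is the value from the mean of the 4 libraries and the grey band runs from -0.3 to 0.3. All black bars lie in the band by choice, while library 4 lies left of it for 10 of the 20 genes and library 1 right of it for 11.

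Applying the rule without low light library 4 gave 16 genes, 12 of them among the 20. Of the 8 genes lost, 7 moved above the low light band and 1 below it. Over the 10 selections that each left out 1 bPAC library, between 16 and 29 genes were chosen, and between 11 and 19 of the 20 were among them, fewest without bPAC dark 1. Chosen in every one of these 10 selections were 6 genes. Under all 19 alternative selections, other scalings, pseudocounts, level minimums, medians and pairs of libraries included, 4 genes were chosen each time: ENSCAFG00000016469, ENSCAFG00000031608, ENSCAFG00000024434 and ENSCAFG00000001305. ENSCAFG00000024434 measured 348 ± 4.74 CPM in bPAC dark (SD, n = 3), 361 ± 72.0 CPM at low light (SD, n = 4) and 681 ± 85.1 CPM at high light (SD, n = 3). ENSCAFG00000001305 measured 18.2 ± 2.98, 19.7 ± 3.69 and 35.6 ± 5.99 CPM (SD, n = 3, 4 and 3). In both, the 3 high light libraries lay above all 7 others.

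The scale of the rule also bears on which genes it finds. On the CPM scale the median gene of the 5948 had L of -0.23 at high light and -0.09 at low light, so that an unchanged CPM was above the typical gene. TMM, which scales libraries so that most genes keep their level, moved these medians up by 0.31 and 0.12. With TMM the same thresholds gave 64 genes, of which 13 were among the 20, or 65% of the 20 and 20.3% of the 64, and the other 7 of the 20 lay above the low light band. Relative to the median gene, the 20 genes had a median L of 1.24 at high light and 0.22 at low light on the CPM scale, and 1.25 and 0.22 with TMM. Measured this way, 4 of the 20 lay above 0.3 at low light and 0 below -0.3.

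Parental cells entered the choice only through the level minimum, which all 20 also reached in bPAC high light (lowest mean 13.8 CPM). Parental libraries can therefore test whether the 20 genes respond to light without bPAC. At high light the fitted log2 fold change against dark was above 0 in 16 of 20 genes and below 0 in 4, with a median of 0.55 (range -0.56 to 1.47). Over all 8530 genes tested the median was -0.02 and 48.5% were above 0. The median of the 20 genes lay between 0.41 and 0.57 when 1 parental library was left out. All 20 genes passed the filter on low counts, which took in the bPAC libraries. ENSCAFG00000004986, at 0 to 8 reads per parental dark library, did not pass it with parental libraries alone. In that fit 19 genes were tested, 14 of them above 0, with a median of 0.52. In the fit of all 18 libraries, none of the 20 genes passed the edgeR quasi-likelihood test at an adjusted p of 0.05. There 0.141% of all genes were called higher and 0.0352% lower. At an unadjusted p under 0.05 there were 7 of 20, all higher, while 8.12% of all genes were higher and 6.93% lower by that measure. DESeq2 called 1 of the 20, higher, and 1.58% of all genes in either direction. With limma-voom these were 0 of the 20 and 0.0586% of all genes.

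Library values show the same direction. Both parental high light libraries lay above all 3 parental dark libraries in 9 of the 20 genes and below them in 1. Among the 5948 genes at the level minimum these shares were 16.2% and 17.6%. L at high light in parental cells reached the 0.8 that the rule asks of bPAC cells in 4 of the 20 genes and in 3.4% of the 5948. One of the 4, ENSCAFG00000020353, stood at 5.52 and 1.25 CPM in the parental high light libraries, and its fitted log2 fold change was -0.28 without parental high light 1. In each of the 20 genes L at high light was larger in bPAC than in parental cells, but the genes were chosen on the bPAC value, so nothing is read from that count.

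ENSCAFG00000005486, singled out after its values were seen, had the smallest p of the 20. It measured 310, 220 and 409 CPM in the parental dark libraries, 337, 356 and 419 CPM at low light and 596 and 644 CPM at high light. The high light libraries lay apart above the rest, and the low light libraries overlapped the dark ones. Its log2 fold change from dark to high light was 1.04 (SE 0.27, edgeR adjusted p = 0.0954). Over 25 alternative fits the log2 fold change lay between 0.797 and 1.23 and the adjusted p between 0.00533 and 0.468. In bPAC cells the gene went from 252 ± 23.6 in the dark to 527 ± 45.0 CPM at high light (SD, n = 3 each), below the 620 ± 33.8 CPM (SD, n = 2) of parental cells at high light. In bPAC low light libraries 1 to 4 it measured 346, 408, 293 and 168 CPM. Libraries 1 to 3 lay above every bPAC dark library and library 4 below every one. Without library 4 its low light L was 0.47, above the band, so its place among the 20 needed that library. It was chosen in 8 of the 10 selections that each left out 1 bPAC library, and not with TMM or size factors.

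ENSCAFG00000011499 stood at 266, 225 and 224 CPM in the parental dark libraries, 256, 242 and 229 CPM at low light and 812 and 438 CPM at high light. Dark and low light libraries overlapped, and both high light libraries were above them but differed from each other by a wide margin. The fitted log2 fold change was 1.47 (SE 0.45, edgeR adjusted p = 0.143), with adjusted p between 5.57e-06 and 0.543 over 25 alternative fits. ENSCAFG00000016469 measured 7.39, 3.02 and 6.29 CPM in parental dark and 9.53 and 11.7 CPM in parental high light libraries, a log2 fold change of 0.92 (SE 0.34, edgeR adjusted p = 0.208). Its 3 low light libraries, at 5.62, 10.1 and 8.997 CPM, overlapped both.

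bPAC low light 4 also widened the spread that the parental comparisons share, since all 18 libraries entered 1 fit. Without it the SE of ENSCAFG00000011499 was 0.23 and that of ENSCAFG00000005486 was 0.21. Both were then called higher in parental high light (edgeR adjusted p = 0.00906 and 0.0386; 0.436% of 8478 genes were called in that fit). No gene of the 20 was called in this comparison on leaving out any other single library. Fits of parental libraries alone, or of only the groups compared, also lacked bPAC low light 4, and each called 0 of 19 genes tested. There the edgeR adjusted p was 0.0757 and 0.188 for ENSCAFG00000011499, and 0.0851 and 0.188 for ENSCAFG00000005486. Over all genes 0.0252% and 0.0261% were called in these fits. The parental high light group holds 2 libraries, which limits what can be detected, and 0 calls do not show that these genes are unaffected by light in parental cells.

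**Figure D3:**
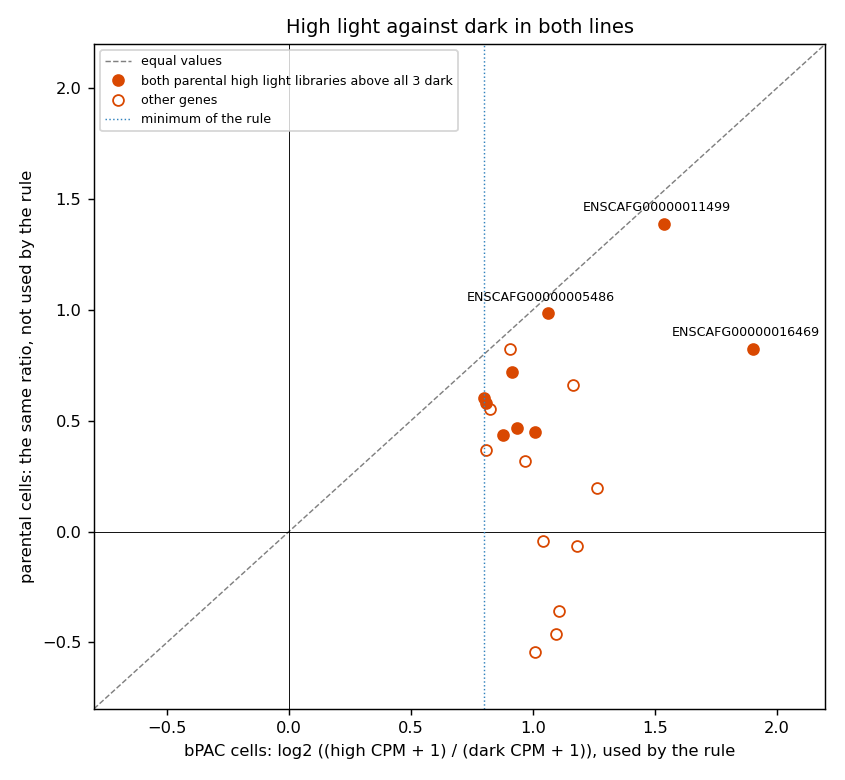
Each point is 1 of the 20 genes, with its L at high light in bPAC cells on the horizontal axis and in parental cells on the vertical axis (both log2); filled points have both parental high light libraries above all 3 parental dark libraries. The points lie below the dashed line of equal values, which the choice on the horizontal axis favours, and 15 of 20 lie above 0 on the vertical axis.

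At low light in parental cells, fitted log2 fold changes against dark were above 0 in 12 of 20 genes and below 0 in 8, with a median of 0.13 (range -0.72 to 1.26) against -0.01 over all genes tested. The edgeR test called 0 of 20, where 6.76% of all genes were called higher and 4.68% lower. At an unadjusted p under 0.05 there were also 0 of 20, where 14.2% of all genes were higher and 14.2% lower. DESeq2 and limma-voom also called 0 of 20, and 14.3% and 12.5% of all genes in either direction. The smallest edgeR adjusted p of the 20 was 0.198. The top of the range, 1.26, was ENSCAFG00000004986. With parental libraries alone 19 genes were tested without it, 11 of them above 0, with a median of 0.06. Leaving out parental dark 2 turned the median to -0.02.

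The gene with the highest level had separated libraries in that comparison. ENSCAFG00000010595 measured 2464, 3056 and 2473 CPM in parental dark libraries and 1512, 1445 and 1712 CPM at low light, with no overlap, and 2616 and 2552 CPM at high light, inside the dark range. The log2 fold change at low light was -0.72 (SE 0.50, edgeR adjusted p = 0.386). It was called lower in 4 of 25 alternative fits, over all of which the adjusted p ran from 0.00879 to 0.581. One of these was the fit without bPAC low light 4, the library in which this gene was far below its group, where the SE was 0.19 (edgeR adjusted p = 0.0168).

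Between low and high light, 18 of 20 parental log2 fold changes were above 0, with a median of 0.30 (range -0.12 to 1.39) against 0.02 over all genes tested. The edgeR test called 0 of 20, and 0.0117% of all genes were called higher and 0% lower. At an unadjusted p under 0.05 there were 3 of 20, all higher, with 4.89% of all genes higher and 7.77% lower by that measure. DESeq2 and limma-voom called 0 of 20, and 0.504% and 0.0117% of all genes in either direction. With parental libraries alone 17 of 19 genes were above 0, with a median of 0.33. This comparison of low and high light shares its libraries with the previous 2 and is not independent of them.

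**Figure D4:**
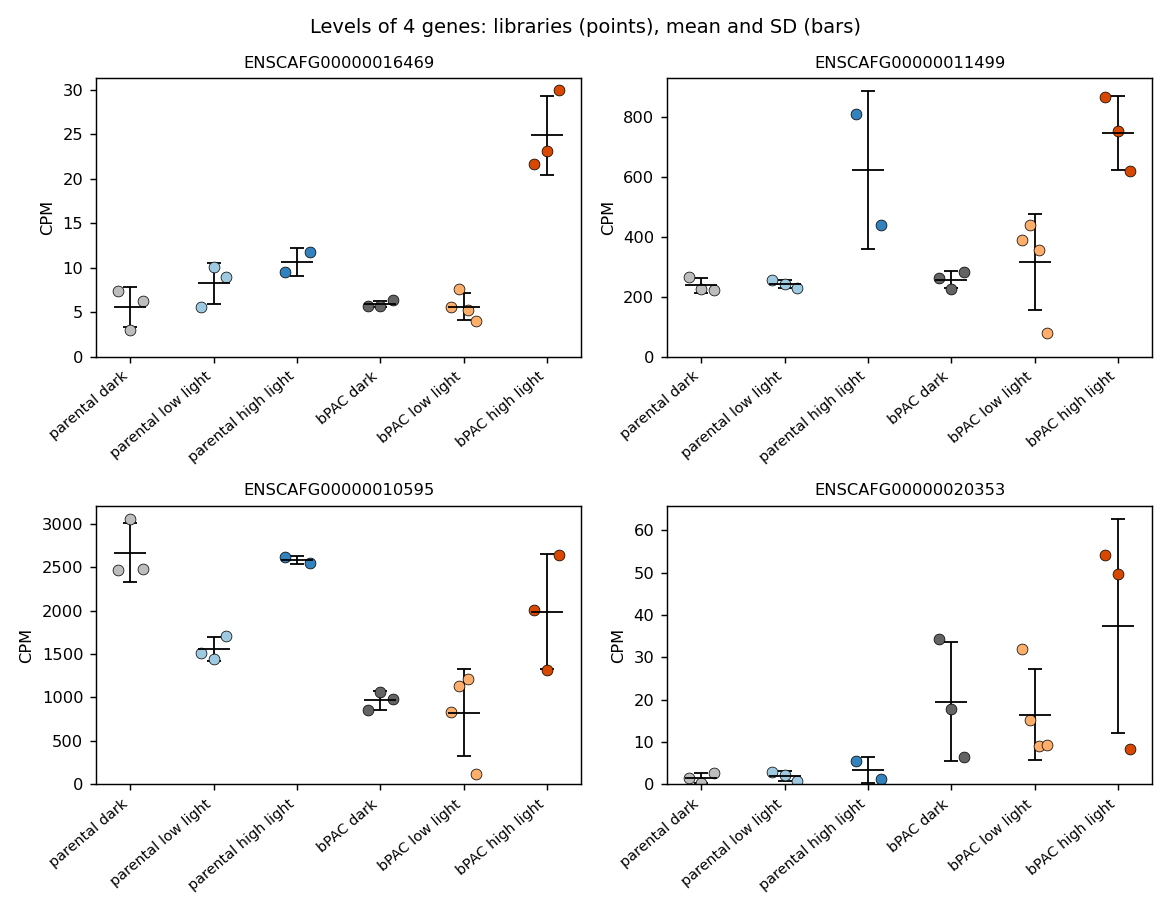
CPM of 4 genes in every library (points), with group means and SD (bars), for the parental groups on the left and the bPAC groups on the right of each panel. In ENSCAFG00000011499 and ENSCAFG00000010595 the lowest point of the bPAC low light group is library 4, at 79.4 and 119 CPM, and in ENSCAFG00000020353 the lowest bPAC high light point is library 3, at 8.34 CPM.

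The lines differed in the level of some of these genes before any light. The comparison contains the bPAC dark libraries that the rule used, so it is given without a test. In the dark, the bPAC mean exceeded the parental mean in 12 of 20 genes and was under it in 8, and the median log2 ratio was 0.09, against -0.05 over the 5948 genes. Both genes with the largest difference, ENSCAFG00000020353 and ENSCAFG00000004986, were singled out after their values were seen. ENSCAFG00000020353 measured 1.47 ± 1.18 CPM in parental and 19.5 ± 14.1 CPM in bPAC dark libraries (SD, n = 3 each). Within the bPAC line it was uneven in every group. It stood at 34.3, 17.8 and 6.32 CPM in the dark, between 9.004 and 32.0 CPM at low light and at 54.1, 49.7 and 8.34 CPM at high light. The groups overlapped throughout, and its rise at high light came through 2 of 3 high light libraries. It was chosen in 5 of the 10 selections that each left out 1 bPAC library. Without bPAC dark 3, for example, its high light L was 0.503, under the minimum of the rule.

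ENSCAFG00000004986 had 11 reads in the 3 parental dark libraries and 92 in the 3 bPAC dark libraries, or 0.519 ± 0.453 and 8.56 ± 0.342 CPM (SD, n = 3 each). At high light it stood at 1.502 ± 0.358 CPM in parental (SD, n = 2) and 17.0 ± 5.98 CPM in bPAC cells (SD, n = 3). Its bPAC libraries lay above its parental libraries at every dose. In the opposite direction, ENSCAFG00000010595 was at 965 ± 106 CPM in bPAC dark and 2665 ± 339 CPM in parental dark libraries (SD, n = 3 each). At high light the 2 lines overlapped in this gene, with 1989 ± 664 CPM (SD, n = 3) in bPAC and 2584 ± 45.7 CPM (SD, n = 2) in parental cells. Its bPAC means were below its parental means in the dark, at low light and at high light.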

How the data were processed

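The authors deposited 1 table of raw read counts per library, with 32220 gene IDs and 5 rows of reads assigned to no gene, which stayed out of library sizes and tests. Gene reads made up 29.4% to 33.9% of all reads. Lexogen's SPLIT kit served for extraction and its QuantSeq 3' FWD kit for the libraries, per the labels' protocols; it reads transcript ends, so counts do not scale with transcript length. Build CanFam3.1 comes from the submitters' processing notes. The aligner, the counter and the annotation are not given in the sources. All 19 pairs of replicates differed beyond counting noise, with a chi-square of at least 8.43 per degree of freedom.

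The 20 genes and the comparisons were chosen with earlier results of these data known. All 18 libraries entered 1 model of 6 groups in edgeR 4.0.16 (R 4.3.3; filterByExpr at a minimum count of 10, TMM, robust glmQLFit, glmQLFTest), with Benjamini-Hochberg adjustment over 8530 genes at 0.05. The SE of a log2 fold change is its size over the square root of F. The script was tested on simulated counts. Alternatives were DESeq2 1.42.0 (size factors, Wald test), limma-voom 3.58.1, other filters, fewer groups and each library left out. For the rule they were other scalings, pseudocounts (0.5, 2), level minimums (5, 20 CPM), medians, and libraries left out. Separation of high light libraries without single libraries or on other scales was chosen after the data were seen. The rule for named genes took the 2 largest increases without overlap and up to 2 called genes per direction and parental comparison. No planned gene list could be used, since IDs have no symbols.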

Additional observations from a re-analysis of the deposited data

Results flagged for a closer look

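In a group of 4 libraries, a library is listed here when its gap to the nearest of the others is a larger share of the group's range than Dixon's 95% critical value allows. This was examined for bPAC low light in 20 genes and their sum. In groups not chosen by their values, chance alone lists about 1 group in 20. The mean of these 4 libraries took part in choosing the genes, so that rate does not apply to the genes or to their sum. The summed level of the 20 genes was lowest in bPAC low light 4, at 1350 CPM, with the next library at 2909 CPM and the highest at 3188 CPM. ENSCAFG00000031346 was also lowest there, at 43.1 CPM against 64.9 to 68.5 CPM. ENSCAFG00000019935 was highest in bPAC low light 1, at 8.64 CPM against 6.97 to 7.21 CPM.

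In 5 cases, 4 at high and 1 at low light, every illuminated library of one line lay on one side of its dark mean and every library of the other line on the other side. The difference between the lines was not tested, and at high light the bPAC direction is fixed by the choice of genes. Among the 5948 genes at the level minimum 11.4% showed such opposite sides at high light and 2.42% at low light, and parental high light holds 2 libraries. Of the 1323 genes with all 3 bPAC high light libraries above the dark mean, 14.1% had both parental libraries below theirs, and of the 19 such genes among the 20 there were 4. At high light, L in bPAC cells exceeded L in parental cells by 1.47 for ENSCAFG00000001217 (1.11 and -0.36), by 1.56 for ENSCAFG00000002974 (1.01 and -0.54) and by 1.56 for ENSCAFG00000031346 (1.09 and -0.46). Parental high light libraries overlapped the dark ones in the first and second of these genes, and so did bPAC high light 3 in ENSCAFG00000002974, at 15.5 CPM. The difference was 1.09 for ENSCAFG00000010595 (1.04 and -0.04), whose parental high light libraries lay inside the dark range and whose fitted parental value with TMM was 0.02, of opposite sign. At low light it was 0.49 for ENSCAFG00000031608 (0.18 and -0.31), and in both lines these low light libraries overlapped the dark ones.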

How the results depend on the processing

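The rule gave 64 genes on CPM scaled by TMM and 66 with DESeq2 size factors, in place of 20, and 16 to 29 without 1 bPAC library. Genes whose high light libraries lay above all other bPAC libraries numbered 15 to 20 without 1 bPAC library. In parental high light against dark, the count of called genes was 0 to 2 without 1 library, 1 with DESeq2 and 2 with no filter, while over all genes the share called was 0.176% in the reported fit, 1.58% with DESeq2 and 1.36% with no filter. In parental low light against dark it was 0 to 1 without 1 library, and 1 each with no filter, with parental libraries alone and with only the groups compared (7.81%, 15.9% and 16.2% of all genes, against 11.4%). In parental high against low light it was 0 to 1 without 1 library and 1 with no filter (0.312% of all genes, against 0.0117%). Without bPAC low light 4 these counts were 2, 1 and 1, with 0.436%, 14.7% and 0.0354% of all genes called. The cause of the other differences was not tested. Medians of the 20 genes without 1 parental library ran from 0.41 to 0.57 for high light against dark, from -0.023 to 0.18 for low light against dark, and from 0.26 to 0.36 for high against low light. Without parental low light 1 the low light median was 0.01. Depth limits genes such as ENSCAFG00000004986, at 0 to 8 reads per parental dark library. No paired analysis was possible because the labels give no replicate numbers.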
